A study of Mus musculus with 2 samples.

Results

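Polyamine synthesis and breakdown was followed here through 10 genes: Odc1, Amd1, Srm and Sms (synthesis), Oaz1, Oaz2 and Azin1 (regulators of ornithine decarboxylase), and Sat1, Smox and Paox (breakdown). The rows were taken by gene symbol, and all 10 were found among the 25791 rows of the deposited table. The cells were Extensively Self Renewing Erythroblasts, or ESREs, mouse precursors of red cells that can be propagated for long periods outside the body, and their genetic background is given as C57/bl6. Proliferating ESREs formed the expansion group, and ESREs that had matured for 1 day formed the maturation group. The series title names mice carrying a transgenic β-Yac, whereas the sample labels give the background alone, and no label used here says whether these libraries came from transgenic cells. Both groups were grown by the same cited protocol, and the make-up of the media is likewise not given. RNA sequencing gave 1 deposited FPKM value per gene and group (fragment numbers scaled by transcript length and library size). Biological duplicates are named in the series text, but no replicate values were used here. Every value below is therefore the authors' value for a group, the depth behind it is unknown, and no difference has a replicate check or a test.

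Polyamines (putrescine, spermidine and spermine) are small positively charged molecules that bind RNA and DNA and are needed by dividing cells. Ornithine decarboxylase makes putrescine from ornithine, and a pair of synthases then add aminopropyl groups donated by decarboxylated S-adenosylmethionine (SAM) to make spermidine and spermine. Antizymes, which are made when polyamines are plentiful, bind ornithine decarboxylase and send it to the proteasome, and the antizyme inhibitor binds antizyme in its place. Spermidine also supplies the modified lysine, hypusine, of the translation factor eIF5A. Breakdown runs back from spermine and spermidine through an acetyltransferase and oxidases, which release hydrogen peroxide or aldehydes.

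The pathway genes did not move as a block between the groups. Smox, spermine oxidase, was 9.52-fold higher in maturation, and Odc1 was 1.61-fold higher. Srm and Sms, the genes of the spermidine and spermine synthases, were 2.02-fold and 2.15-fold lower by the values as deposited. Paox was 2.78-fold lower at a low level, and the other 5 genes lay within 1.38-fold. In bulk RNA, fewer cells of a type and less RNA per cell cannot be told apart.

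A row was counted as expressed at 1 FPKM or more in at least 1 group, which 9263 rows met. All 10 polyamine genes passed, but Smox passed only through maturation and Paox only through expansion, so each of those rows had to differ. On the scale used for counting, the log2 ratio of maturation over expansion with 1 FPKM added to each value, 1 of the 10 (Smox) was at least 2-fold higher, against 3.13% of expressed rows. None was at least 2-fold lower, against 6.70% of expressed rows. The added 1 FPKM shrinks ratios of low rows. By plain FPKM ratio 1 of 10 was at least 2-fold higher (background 3.96%) and 3 (Srm, Sms and Paox) were at least 2-fold lower (background 14.8%). Backgrounds of plain ratios were taken over the 9201 expressed rows above 0 in both groups. With log2 ratios centred on the median of all expressed rows the counts stayed at 1 higher (background 4.53%) and 0 lower (background 3.92%). The median log2 ratio of the 10 was 0.060, beside -0.25 over all expressed rows. A ratio above 0 was found for 6 of the 10 and for 25.9% of all expressed rows.

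**Figure D1:**
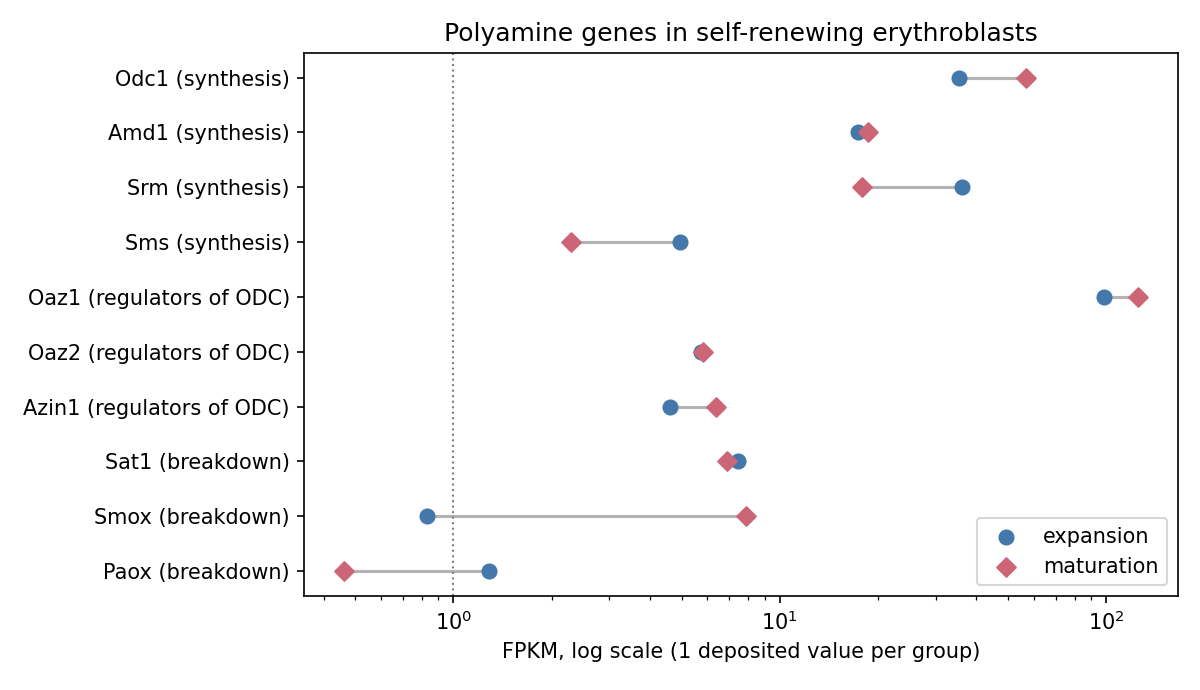
FPKM of each polyamine gene in expansion (circles) and maturation (diamonds) on a log axis, 1 deposited value per group, with the dotted line at 1 FPKM. Smox crosses from 0.830 to 7.90 FPKM, Srm and Sms shift left by similar distances, and Oaz1 is the highest gene of the set in both groups.

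Odc1 (mm9 chromosome 12, 17551679 to 17558308) encodes ornithine decarboxylase, which catalyses the first committed step of synthesis. Its level was 35.4 FPKM in expansion and 56.98 FPKM in maturation. The maturation value was the higher of the pair, and the log2 ratio of 0.67 was above that of 94.6% of expressed rows. In rank among all rows by FPKM, Odc1 moved from place 930 to place 679.

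Amd1 (chromosome 10, 40007265 to 40021992) encodes S-adenosylmethionine decarboxylase, which makes the aminopropyl donor. It stood at 17.4 FPKM in expansion and 18.6 FPKM in maturation, a log2 ratio of 0.096. The values nearly coincide. They are also hard to assign to this gene, because Amd1 has a near-copy, Amd2, listed at 18.5 and 19.8 FPKM. Of the 36-base stretches in Amd1 transcripts of the GENCODE vM21 annotation, 81.5% also occur in transcripts of other genes, and of the 75-base stretches 72.5%. The length of the reads is unknown here. Summing both rows gave 35.8 FPKM in expansion and 38.4 FPKM in maturation, a ratio of 1.07.

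Srm (chromosome 4, 147965622 to 147968728) encodes spermidine synthase, which turns putrescine into spermidine. Its level was 36.2 FPKM in expansion and 17.9 FPKM in maturation. In expansion Srm and Odc1 were at nearly the same level, at places 922 and 930 among all rows, and in maturation Srm stood at place 1451 in that order. The log2 ratio was -0.98, above that of 7.11% of expressed rows.

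Sms (chromosome X, 153881886 to 153929978) encodes spermine synthase, which turns spermidine into spermine. It was at 4.94 FPKM in expansion and 2.29 FPKM in maturation, with a log2 ratio of -0.85. The maturation value is the lower, as for Srm, and the ratio of Srm to Sms was 7.33 in expansion and 7.79 in maturation. The synthases together summed to 41.1 FPKM in expansion and 20.2 FPKM in maturation. The sum over all 4 synthesis genes nevertheless differed little, at 93.9 and 95.8 FPKM. Within it, Odc1 was higher and the synthases were lower in maturation, while Amd1 was nearly level. The ratio of Amd1 to Odc1 went from 0.490 to 0.327.

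**Figure D2:**
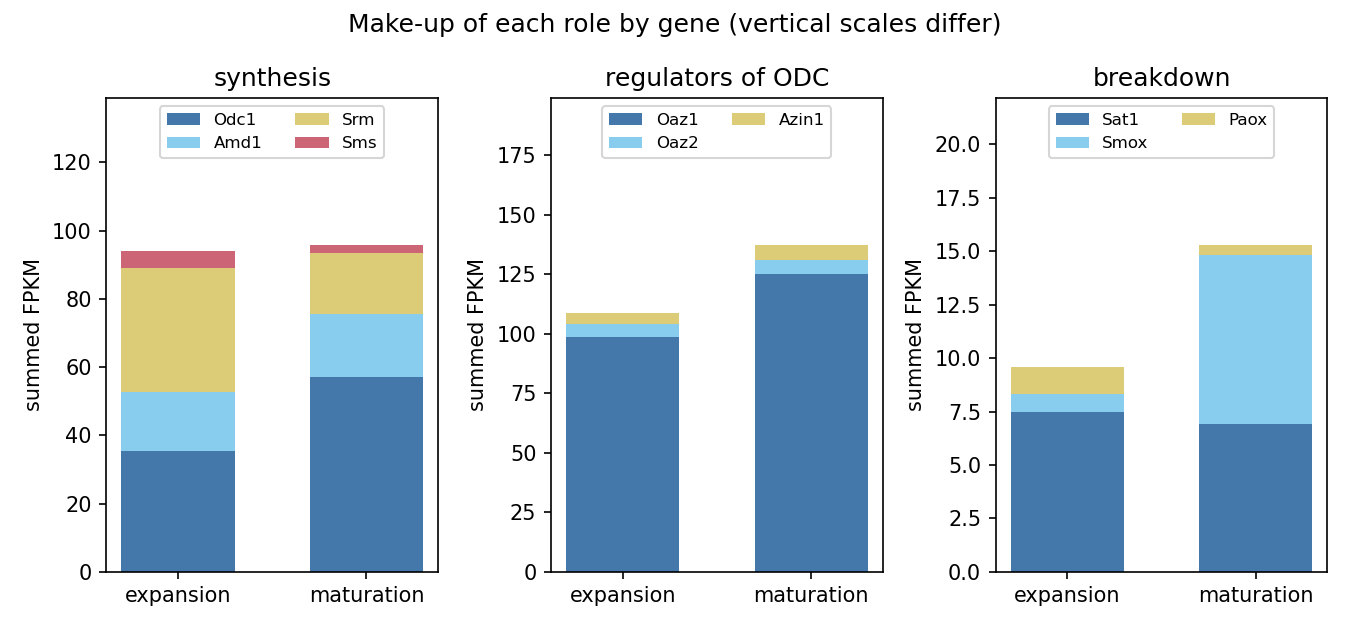
Stacked bars of FPKM per gene within the synthesis, regulator and breakdown roles in expansion and maturation, from 1 deposited value per gene and group, with vertical scales that differ between panels. The synthesis total stays between 93.9 and 95.8 FPKM while its make-up differs, and Smox is the segment that sets the breakdown bars apart.

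Oaz1 (chromosome 10, 80289401 to 80292035) encodes antizyme 1, the main antizyme of most tissues. It was the most abundant of the set, at 98.5 FPKM in expansion and 125 FPKM in maturation, a log2 ratio of 0.34. Oaz2 (chromosome 9, 65524355 to 65538107), a second antizyme gene, was at 5.72 and 5.83 FPKM, a log2 ratio of 0.024. Oaz1 was thus 17.2 times Oaz2 in expansion and 21.4 times in maturation. Antizyme is made only when the ribosome slips forward by a base at the stop codon of a short leading reading frame, a step that polyamines favour and that an RNA level does not report. The site is shown for both genes because their RNA levels count messages that need this slip to give protein. The capitals mark the codon before the slip and the stop codon that the slip avoids.
Oaz1: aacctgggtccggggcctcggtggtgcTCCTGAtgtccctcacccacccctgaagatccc
Oaz2: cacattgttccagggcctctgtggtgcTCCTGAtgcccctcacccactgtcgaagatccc

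These stretches were read from GENCODE vM21 transcripts on GRCm38, plus strand, within exons: chr10:80828265-80828324 for Oaz1 and chr9:65686242-65686301 for Oaz2. They are identical at 49 of 60 bases (81.7%), and the capitals fall in a run shared by both genes. The Oaz1 stretch came from a transcript annotated as protein-coding, and the Oaz2 stretch from one annotated as a processed transcript. Of 7 annotated Oaz1 transcripts 2 hold the capitals followed by the same 2 bases, and of 7 Oaz2 transcripts 3. These counts are of exact letter matches in the annotated sequences. They do not tell whether the messages behind the other annotated transcripts lack the slip site.

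Azin1 (chromosome 15, 38417185 to 38449021) encodes antizyme inhibitor 1, a relative of ornithine decarboxylase that has lost the enzyme activity and frees the enzyme from antizyme. Its level was 4.61 FPKM in expansion and 6.36 FPKM in maturation, a log2 ratio of 0.39. Azin1 and Oaz1 were higher in maturation by similar amounts, Oaz2 was nearly level, and none of the 3 regulator genes reached 2-fold. The log2 ratio was above 0 for all 3, beside 25.9% of all expressed rows. Ratios taken within a group do not depend on how the libraries were scaled. Odc1 stood at 35.9% of Oaz1 in expansion and at 45.6% in maturation. Azin1 stood at 4.68% of Oaz1 and then at 5.08%. Odc1 was 7.68 times Azin1 in expansion and 8.96 times in maturation. The message of the enzyme was therefore higher relative to those of both its inhibitor and its protector, by 1.27 times and 1.17 times, with no replicate spread to read these against.

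Sat1 (chromosome X, 151647681 to 151650952) encodes spermidine/spermine N1-acetyltransferase, whose acetylation step opens the route to export or oxidation. It was at 7.47 FPKM in expansion and 6.91 FPKM in maturation. The log2 ratio of -0.098 lies near 0, and its sign turns positive once ratios are centred on the median of all expressed rows (0.15), rescaled without small RNA rows (0.012) or rescaled to the same upper quartile (0.088). Relative to Odc1, Sat1 went from 21.1% to 12.1%.

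Smox (chromosome 2, 131317598 to 131350919) encodes spermine oxidase, which turns spermine directly back into spermidine and releases hydrogen peroxide and an aldehyde. It was at 0.830 FPKM in expansion, below the level counted as expressed, and at 7.90 FPKM in maturation. The log2 ratio was 2.28, above that of 99.2% of expressed rows, and Smox moved from place 9496 to place 2643 among all rows. Smox went from 2.35% to 13.9% of Odc1, a ratio 5.92 times higher. None of its 36-base or 75-base stretches occurs in transcripts of other genes (0% at both lengths).

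Paox (chromosome 7, 147311584 to 147320233) encodes the peroxisomal polyamine oxidase, which acts on acetylated polyamines. It was at 1.28 FPKM in expansion and 0.463 FPKM in maturation, the lowest of the 10 in maturation. Its log2 ratio was -0.64. Of its 36-base stretches 31.8% occur in other transcripts, and of its 75-base stretches 25.6%, mostly in Gm19680, a processed pseudogene in GENCODE vM21. The breakdown genes summed to 9.58 FPKM in expansion and 15.3 FPKM in maturation. Sat1 made up 77.9% of that sum in expansion and 45.2% in maturation. Smox made up 8.66% and then 51.7%, and Paox 13.4% and then 3.03%. Smox was higher and Paox lower in maturation, but Smox passed the filter only through maturation and Paox only through expansion. Each had to differ in that direction, so their contrast supports nothing about the oxidases.

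**Figure D3:**
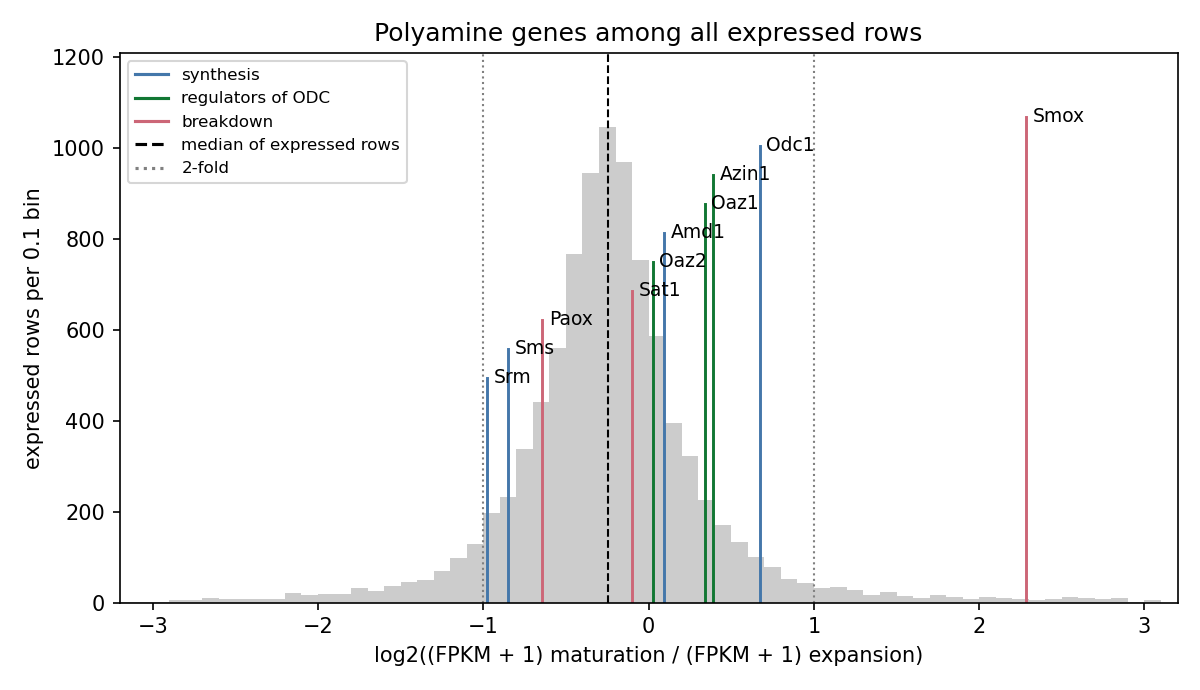
Histogram of log2((FPKM + 1) maturation / (FPKM + 1) expansion) for the expressed rows in bins of 0.1, with a vertical line for each polyamine gene coloured by role; rows beyond the axis limits are not drawn. Smox at 2.28 stands beyond the 2-fold line, Srm at -0.98 and Sms at -0.85 lie on the low side, and the dashed line marks the median of -0.25.

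Transcripts of other members also share stretches with other genes. The gene that shared most was a processed pseudogene for Odc1, Oaz1, Oaz2, Sms and Sat1, and for Azin1 it was Gm49077, annotated as antisense. Of 75-base stretches, 16.6% were shared for Odc1, 17.0% for Oaz1, 16.9% for Sms, 3.37% for Oaz2, 4.37% for Azin1, 0.942% for Sat1 and 0% for Srm. The shares of 36-base stretches were larger, at 29.2% for Odc1, 23.2% for Oaz1, 18.4% for Sms and 10.7% for Oaz2. For Azin1, Sat1 and Srm they were 5.10%, 5.64% and 6.10%. Whether the reads kept strand is not stated in the labels, and the part of such reads in the levels above was not tested.

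RefSeq promoter windows on GRCm38.p6, from 250 bases before to 50 after a start site, were found for 8 of the 10 genes (10 windows), and Srm and Azin1 had none in the table used. Short sequences were searched on both strands as a description of these windows. The E-box CACGTG, the sequence bound by MYC and MAX among others, occurred in 1 of 10 windows (Sms) and in 7.15% of all 32851 windows. The GATA word was searched as AGATAA, then with its last letter changed as AGATAG, and with the starting letter changed as TGATAA and also as TGATAG. It occurred in 2 of 10 (Smox and Oaz2) and in 29.8% of all windows. The polyamine-responsive word TATGACTAA described for the human acetyltransferase gene occurred in 0 of 10, Sat1 included, and in 0.0974% of all windows. Sequence outside these windows was not searched, so this does not tell whether mouse Sat1 has the word elsewhere. The match was AGATAG for Smox and TGATAG for Oaz2, and any tie between a match and an RNA level was not tested. The Smox stretch before its start site is shown because Smox differed most, with the shorter stretches of the other matches, and capitals mark the matched word.
Smox: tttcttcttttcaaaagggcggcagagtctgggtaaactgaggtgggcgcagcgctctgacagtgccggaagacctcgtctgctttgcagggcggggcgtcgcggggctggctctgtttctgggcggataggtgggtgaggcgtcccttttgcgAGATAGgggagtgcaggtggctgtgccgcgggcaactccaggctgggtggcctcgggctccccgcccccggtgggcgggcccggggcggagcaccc
Sms: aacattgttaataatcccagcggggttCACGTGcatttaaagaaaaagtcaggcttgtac
Oaz2: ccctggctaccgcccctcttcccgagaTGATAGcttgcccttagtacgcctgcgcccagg

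The Smox stretch lies at chr2:131491612-131491861 on the plus strand, the Sms stretch at chrX:157492451-157492510 on the minus strand and the Oaz2 stretch at chr9:65676394-65676453 on the plus strand. A second Sms window, around another start site, held none of the words.

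Genes that feed or use the pathway were read from 5 lists with 47 entries, of which 25 were expressed. On the log2 scale with 1 FPKM added, none of these 25 was at least 2-fold higher and 4 (Asl, Mtap, Atp13a2 and Slc22a3) were at least 2-fold lower, against 3.13% and 6.70% of all expressed rows. By plain FPKM ratio none was at least 2-fold higher (background 3.96%) and 8 were at least 2-fold lower (background 14.8%), the further 4 being Oat, Slc25a15, Mri1 and Adi1. Asl, Slc25a15, Atp13a2 and Slc22a3 passed the filter only through expansion and had to differ, so these counts support nothing about the lists. Their median log2 ratio was -0.51, with 23 of 25 below 0 (74.1% of all expressed rows were below 0) and 19 of 25 below the median of all expressed rows. Apip and Amd2 were the 2 above 0. Slc7a1, Mtr, Dhps and Atp13a3 were below 0 as deposited but above it after centring.

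The supply of ornithine was represented by 5 expressed genes of 13, all of them below 0, beside 74.1% of all expressed rows. Asl and Slc25a15 among them passed the filter only through expansion and had to differ. Oat, ornithine aminotransferase, was at 19.8 FPKM in expansion and 9.59 FPKM in maturation. Aldh18a1, which makes the precursor of ornithine and proline from glutamate, was at 13.6 and 10.4 FPKM. Both arginase genes, whose enzymes release ornithine from arginine, were close to 0, with Arg1 at 0.015 and 0.0060 FPKM and Arg2 at 0.010 and 0.0070 FPKM. Slc7a1, an importer of arginine and other cationic amino acids, differed little at 6.57 and 6.26 FPKM. Slc25a15, the mitochondrial ornithine carrier, was at 1.36 and 0.656 FPKM. Asl, argininosuccinate lyase, was at 2.94 and 0.763 FPKM, and its partner Ass1 was at 0.0090 and 0.0053 FPKM. By plain ratio Oat, Slc25a15 and Asl were at least 2-fold lower, and with 1 FPKM added Asl was the 1 gene of the list that was.

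All 11 genes of SAM supply and methylthioadenosine (MTA) salvage were expressed, with a list median of -0.54. Below 0 were 10 of them, beside 74.1% of all expressed rows. MTA is the by-product of each aminopropyl transfer, and its salvage returns methionine. Mtap, the phosphorylase that begins salvage, was at 8.35 FPKM in expansion and 2.35 FPKM in maturation, and was the 1 gene of the list at least 2-fold lower with 1 FPKM added. Mri1, the isomerase that follows, was at 5.49 and 2.28 FPKM. Apip, the next enzyme, went the other way, at 5.85 and 9.58 FPKM. Enoph1 was at 3.21 and 1.62 FPKM and Adi1 at 12.96 and 6.46 FPKM. By plain ratio Mtap, Mri1 and Adi1 were at least 2-fold lower. Mat2a, which makes SAM in non-hepatic cells, was at 45.9 and 32.98 FPKM, and Mat2b, its regulatory partner, was at 13.1 and 10.4 FPKM. Ahcy, which removes the S-adenosylhomocysteine left by methyl transfer, was at 19.3 and 12.98 FPKM.

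The 4 genes of eIF5A and its hypusine differed by less than 2-fold, with a median of -0.26, close to that of all expressed rows. Eif5a was more abundant than any polyamine enzyme gene, at 238 FPKM in expansion and 197 in maturation. Its paralog Eif5a2 was at 4.34 and 3.48 FPKM. Dhps, deoxyhypusine synthase, which takes its substrate from spermidine, was at 3.88 and 3.28 FPKM. Dohh, which completes hypusine, was at 7.49 and 4.90 FPKM.

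Of 12 transport genes 4 were expressed. With 1 FPKM added, 2 of them (Slc22a3 and Atp13a2) were at least 2-fold lower, against 6.70% of all expressed rows. Both passed the filter only through expansion and had to differ, so this count supports nothing about the list. Slc22a3, an organic cation transporter that can carry polyamines, was at 2.59 FPKM in expansion and 0.073 FPKM in maturation. Atp13a2, a lysosomal polyamine exporter, was at 3.21 and 0.406 FPKM. Atp13a3, a related P-type ATPase linked to polyamine uptake, was at 13.9 and 12.8 FPKM, and Slc3a2, an amino acid transporter heavy chain also tied to polyamine export, was at 25.4 and 15.0 FPKM. Among paralogs and related enzymes Amd2 alone was expressed, and Oaz3, Azin2 (listed as Adc), Sat2, Satl1, Aoc1 (listed as Abp1) and Agmat stayed at or below 0.051 FPKM in both groups.

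**Figure D4:**
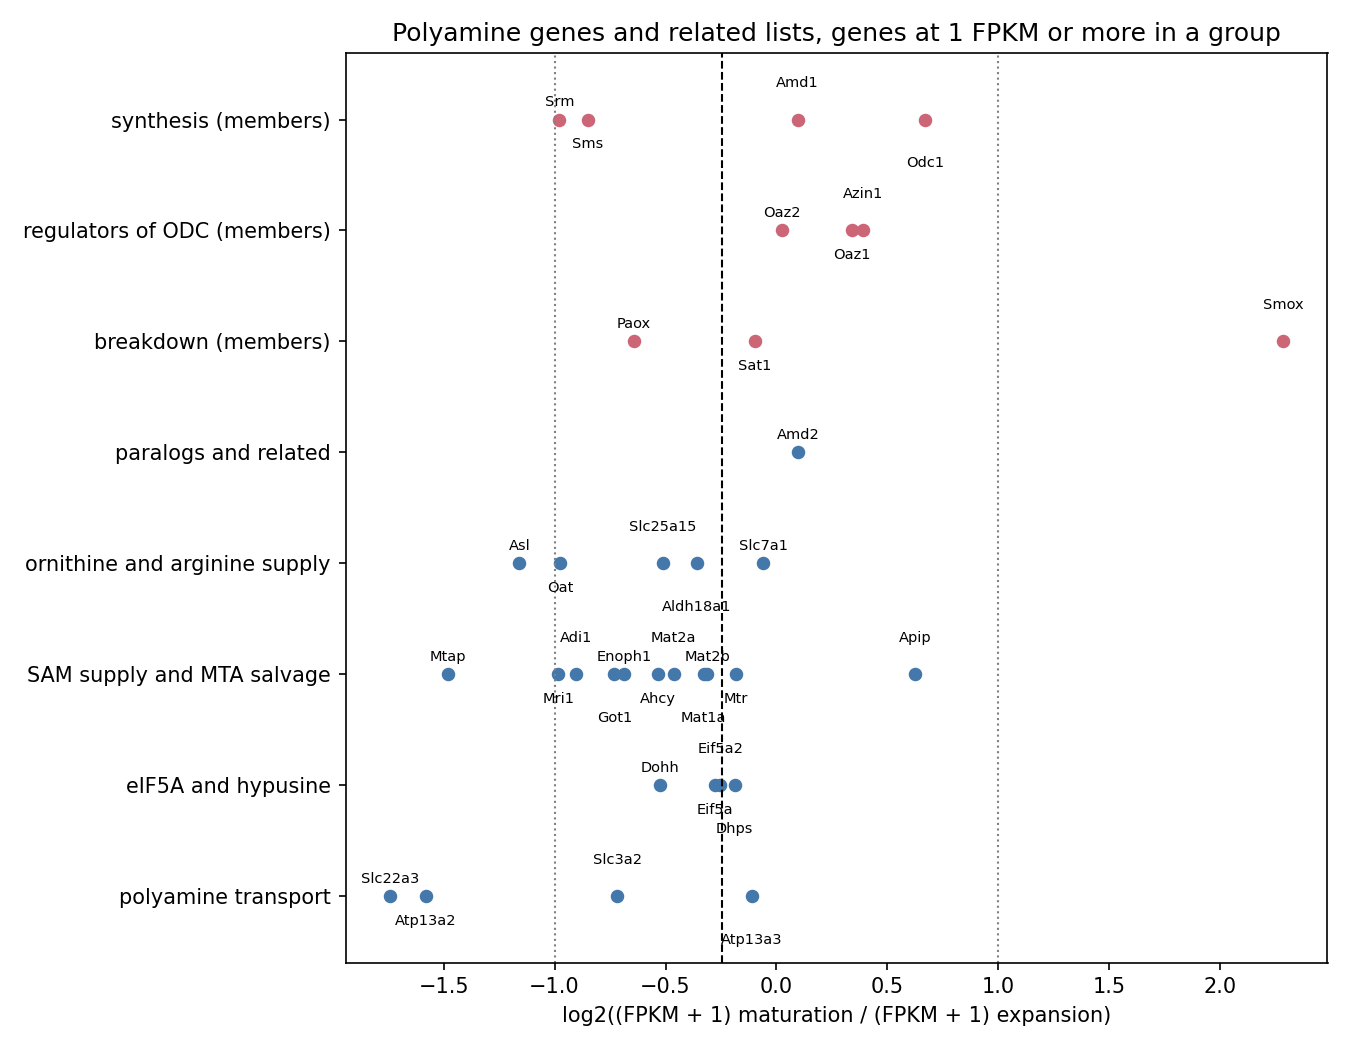
Log2((FPKM + 1) maturation / (FPKM + 1) expansion) of the expressed polyamine genes (red) and of the expressed genes of the related lists (blue), with dotted lines at 2-fold and a dashed line at the median of all expressed rows (-0.25). Apip and Amd2 are the only related genes right of 0, and Mtap, Asl, Atp13a2 and Slc22a3 lie left of the lower 2-fold line.

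Erythroid identity was checked with 8 markers, all of them expressed and all higher in maturation, beside 25.9% of all expressed rows. Slc4a1 (0.074 and 18.0 FPKM) and Alas2 (0.975 and 7.89 FPKM) passed the filter only through maturation and had to differ. The 8 summed to 3073 FPKM in expansion and 13277 FPKM in maturation. Most of that sum came from the globin genes Hba-a1 (1951 and 8370 FPKM) and Hbb-b1 (1059 and 4739 FPKM). Mast cell and basophil markers (4 of 7 expressed) summed to 24.8 and 2.72 FPKM, with Mcpt8 at 0 in both groups and Cpa3 at 0.107 and 0 FPKM. Megakaryocyte markers (4 of 7 expressed) summed to 22.8 and 4.17 FPKM, with Pf4 at 0.033 and 0 FPKM, while Gp9 went the other way at 0.756 and 1.84 FPKM. Macrophage markers (1 of 6 expressed) summed to 1.35 and 0.608 FPKM, and 0 of 6 granulocyte and 0 of 5 lymphocyte markers were expressed. Among these markers Ms4a2, Hdc, Fcer1a, Gp5, Gp1ba, Itga2b and Cd68 passed the filter only through expansion and had to be lower. Gp9 passed only through maturation and had to be higher. Cma1, a mast cell marker below the filter, was at 0.192 and 0.288 FPKM. The mast cell and megakaryocyte sums were lower in maturation, as were Srm, Sms, Paox, Slc22a3 and Atp13a2. So were 74.1% of all expressed rows, and the part of mast cells or megakaryocytes in those values was not tested.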

How the data were processed

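Mouse ESRE RNA was sequenced in an expansion and a maturation group. Values are FPKM as deposited by the authors, per the file headers, with 1 column for each group. The submitters' processing notes name Cuffdiff 2.0.2 and mm9; for the aligner, annotation, filters, read length and pooling of duplicates, nothing is given in the sources used here. No counts or depths were used, so precision is unknown and no test was made. Starts were counted from 0 in the table and are printed counted from 1. This was read from microRNA rows whose end minus start lay within 1 base of the RefSeq hairpin length. In 175 of these 175 rows it equalled that length, and rows further off were left out. Log2 ratios used a pseudocount of 1 FPKM and a filter of 1 FPKM in at least 1 group, computed with Python 3.11.15 and pandas 2.3.3. The counting was run on simulated ratios with set shifts to the higher side only, which checks the code and not the precision of the data. The 10 members and all gene lists were chosen with earlier results of these data known. Of 96 list entries, 93 matched by symbol and 3 by a RefSeq synonym. All members were named, as were related genes beyond 2-fold on the log2 scale and up to 3 more per list by level in expansion; others (Slc25a15, Arg1, Arg2, Ass1, Mri1, Apip, Enoph1, Adi1, Mtr, Dhps and unexpressed paralogs among them) were chosen after their values were seen. So were the promoter words.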

Additional observations from a re-analysis of the deposited data

How the results depend on the processing

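Smox was the 1 gene at least 2-fold higher under all 9 alternatives. Its log2 ratio ranged from 1.15 with a pseudocount of 5 to 3.25 by plain FPKM ratio. Changing the filter or summing Amd1 and Amd2 could not alter this ratio, which stayed at 2.28. The count at least 2-fold lower went from 0 to 3 (Srm, Sms and Paox) with a pseudocount of 0.1 and with plain FPKM ratios, the latter chosen after seeing the data, because the added FPKM shrinks low ratios. The median log2 ratio of the polyamine genes went from 0.060 to 0.22 with a minimum of 5 FPKM (8 genes left), 0.31 after centring, 0.17 after rescaling without small RNA rows and 0.25 after upper-quartile rescaling. These scalings moved the median of all expressed rows from -0.25 to 0, -0.15 and -0.084. Sat1 changed sign under the same 3 scalings (0.15, 0.012 and 0.088), and no other polyamine gene did under any alternative. In the same order Srm was at -0.73, -0.86 and -0.78 (-0.98 as deposited) and Sms at -0.60, -0.76 and -0.70 (-0.85 as deposited). Small RNA rows held 17.6% of summed FPKM in expansion and 25.5% in maturation. No paired analysis was possible because each group has 1 value per gene. Depth is unknown, which limits most the rows near 1 FPKM, Smox in expansion and Paox among them.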
